A study of Mus musculus with 14 samples.

Results

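Imprinted genes are expressed mainly from a single parental copy, and 38 of them were examined here for H3K27me3, the trimethylation of lysine 27 on histone H3. The deposited ChIP-seq table held 78 peaks in their windows, of 23668 peaks listed in all. A window was the gene body of the GENCODE annotation plus 5 kb on each side, and a peak belonged to a member when it overlapped the window by at least 1 bp. The members were grouped by imprinted domain into Kcnq1 (7 genes), Igf2/H19 (3), Peg3 (3), Snrpn (6), Dlk1-Meg3 (5), Igf2r (4), Gnas (1), Grb10 (1) and 8 single genes. Listed peaks lay in the windows of 22 members, and 16 members had none.

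The cells were primary hippocampal neurons grown from wild-type CD1 mouse embryos late in gestation, from litters of mixed sex. Knockdown cultures received an LNA gapmer against NeuID, a long noncoding RNA of neurons, in lipid nanoparticles, and control cultures received nanoparticles with a negative control gapmer, so both groups carried an oligonucleotide and a transfection. A gapmer pairs with its RNA and leads to cleavage of that RNA by RNase H. By the labels there were 6 ChIP libraries of the Control and 6 of the NeuID knockdown, and 1 input library for each group. Cultures were measured in bulk, so a lower value in fewer cells and a lower value in every cell cannot be told apart. The comparison asks where H3K27me3 was lower or higher after NeuID knockdown.

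Imprinted genes sit in clusters, each governed by an imprinting control region whose DNA methylation was set in the egg or the sperm. On the silent copy the gene start is often kept off by DNA methylation, by repressive histone marks or by a long noncoding RNA made from the opposite copy. H3K27me3 is written by Polycomb repressive complex 2, whose catalytic subunit is EZH2 or EZH1, and it covers CpG-rich starts of silent developmental genes as well as silent copies of imprinted genes. Kcnq1ot1 and Airn are long noncoding RNAs known to bring Polycomb complexes to the paternal copy of their neighbours in placenta. In neurons several imprinted genes, among them Ndn, Magel2, Snrpn and Meg3, are strongly expressed. The reads here were not split by parental copy, so every value is the sum over both.

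The table gives, for each peak, the authors' log2 mean of normalized reads over all libraries (called the overall mean here), in the control group and in the knockdown group. The difference is the knockdown minus the control log2 mean, and a difference of at least 1, a 2-fold change, is called past the limit. Only group means were used, so the spread between libraries, and with it any SD, standard error or test of a difference, could not be computed, and every comparison is a description. The overall mean weighted the control mean by 0.545, the weight that 6 control and 5 knockdown libraries give, so 11 of the 12 ChIP libraries appear to stand behind the means, and which library is missing is not shown. The study's own text gives equal library numbers per group, which the weights do not show. Neither the depth of the libraries nor the RNA level of NeuID was analysed here. The cell type could be checked only through the presence of the mark within 1 kb of marker starts. Such a peak was found at 1 of 6 neuronal genes (Syt1), 0 of 4 astrocyte genes, 3 of 4 genes of the oligodendrocyte lineage (Olig2, Pdgfra and Sox10) and 0 of 3 microglial genes.

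The sequences below are central stretches of peaks that carried the mark, with CG dinucleotides in capitals. The first is from the centre of the strongest member peak, in Igf2. The next are from the centres of the peaks with the largest negative difference, in Kcnq1, and the largest positive difference, upstream of Grb10, among those with both groups above 0 and an overall mean of 3 or more. They are 300 bases each of the + strand of GRCm38 (mm10), at chr7:142661402-142661701, chr7:143379670-143379969 and chr11:12039575-12039874, and hold 4, 2 and 3 CG. None holds TGCCGC, the motif of Zfp57, the zinc finger protein that keeps imprinting control regions methylated. A stretch need not stand for its peak. The Igf2 stretch has a GC content of 39%, whereas the whole peak of 3997 bp has 50.9%, 3.38 CG per 100 bp and 2 matches to TGCCGC.
Igf2 strongest peak: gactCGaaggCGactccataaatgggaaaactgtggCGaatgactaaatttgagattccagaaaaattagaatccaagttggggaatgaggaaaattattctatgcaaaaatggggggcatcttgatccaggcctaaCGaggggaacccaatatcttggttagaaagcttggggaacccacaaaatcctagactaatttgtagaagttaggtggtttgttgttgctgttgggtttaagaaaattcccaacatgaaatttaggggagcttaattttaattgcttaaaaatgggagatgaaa
Kcnq1 largest negative difference: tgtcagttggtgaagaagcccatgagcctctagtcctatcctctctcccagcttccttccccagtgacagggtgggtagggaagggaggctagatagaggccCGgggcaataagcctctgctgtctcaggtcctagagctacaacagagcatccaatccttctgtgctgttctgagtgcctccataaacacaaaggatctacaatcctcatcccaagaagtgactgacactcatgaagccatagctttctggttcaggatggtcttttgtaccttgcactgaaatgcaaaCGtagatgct
Grb10 largest positive difference: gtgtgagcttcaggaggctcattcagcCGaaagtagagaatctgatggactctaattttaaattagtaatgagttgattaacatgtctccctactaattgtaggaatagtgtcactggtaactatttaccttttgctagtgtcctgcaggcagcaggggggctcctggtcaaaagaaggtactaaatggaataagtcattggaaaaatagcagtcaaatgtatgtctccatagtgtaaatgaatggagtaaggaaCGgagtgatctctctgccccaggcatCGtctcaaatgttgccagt

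Beside them stand the 250 bases before the starts of Dlk1 (chr12:109452573-109452822, + strand, 8 CG, GC content 54.8%) and Slc22a3 (chr17:12507705-12507954, − strand, 5 CG, GC content 51.2%), from RefSeq on GRCm38.p6. Peaks over the starts of both genes stayed within the limit, and they are shown beside the peaks past it.
Dlk1 promoter: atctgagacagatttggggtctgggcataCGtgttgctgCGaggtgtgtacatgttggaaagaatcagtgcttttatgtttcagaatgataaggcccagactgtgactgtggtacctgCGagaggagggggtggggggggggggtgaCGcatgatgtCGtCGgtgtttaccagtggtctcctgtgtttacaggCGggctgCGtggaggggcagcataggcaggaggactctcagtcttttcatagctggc
Slc22a3 promoter: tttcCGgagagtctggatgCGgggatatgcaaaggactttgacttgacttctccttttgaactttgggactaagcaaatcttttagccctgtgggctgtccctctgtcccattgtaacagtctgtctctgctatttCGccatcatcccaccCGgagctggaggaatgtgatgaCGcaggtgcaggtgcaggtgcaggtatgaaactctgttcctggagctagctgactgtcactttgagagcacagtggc

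Mature miRNAs lay wholly inside member peaks at a pair of loci, miR-1188 in a Rian peak that was lower in the knockdown and miR-483 in a peak over the 3′ part of Igf2. RefSeq gives both arms of each, printed with the seed (bases 2 to 8) in capitals, and no seed was shared among them. The miR-1188 arms lie on the + strand at chr12:109611841-109611861 and chr12:109611877-109611901, and the miR-483 arms on the − strand at chr7:142654968-142654989 and chr7:142654932-142654952 (GRCm38.p6).
miR-1188-5p: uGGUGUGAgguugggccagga
miR-1188-3p: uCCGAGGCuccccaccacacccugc
miR-483-5p: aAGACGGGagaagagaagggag
miR-483-3p: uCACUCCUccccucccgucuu

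Over the 78 member peaks, 14 (17.9%) were lower in the knockdown past the limit and 5 (6.41%) were higher, while 59 stayed within it. Among all listed peaks 20.6% were lower and 20.4% higher, so the share of lower member peaks was near that of the whole table and the share of higher ones was below it. The median difference of the member peaks was -0.25 against -0.02 over all peaks, and 46 of the 78 (59.0%) lay below 0 against 50.8% of all. Member peaks were stronger than the table as a whole, with a median overall mean of 3.37 against 2.93, and wider, with a median of 584 bp against 426 bp. Summed over the 58572 bp they covered, their reads came to 1341 in the control and 1210.0 in the knockdown means, or 90.3% of the control, with 17.2 and 15.5 reads per peak.

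The 19 peaks past the limit all lay off the transcript starts of members and below an overall mean of 5. Of the 10 member peaks at or above that strength, 0 passed the limit, where 4.26% of all listed peaks of that strength did. Of the 68 weaker member peaks 19 (27.9%) passed it, against 43.3% of all weaker peaks. By position, 12 member peaks covered a transcript start of a member and 0 of these passed the limit, with differences from -0.51 to 0.71, whereas 21.3% of all listed peaks over a gene start passed. The first count takes any annotated transcript and the second takes gene starts, so they are not the same measure. The shares are also not matched for strength, since listed peaks over a gene start had a median overall mean of 4.42 and a width of 998 bp. The 12 start peaks had a median overall mean of 5.22, a median width of 1458 bp, a GC content of 61.6% and 6.33 CG per 100 bp. The other 66 peaks, 14 of them lower and 5 higher, had a median overall mean of 3.15, a width of 528 bp and 0.99 CG per 100 bp. Strength and position went together: 7 of the 10 strong peaks covered a start and the other 3 lay in Igf2.

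**Figure D1:**
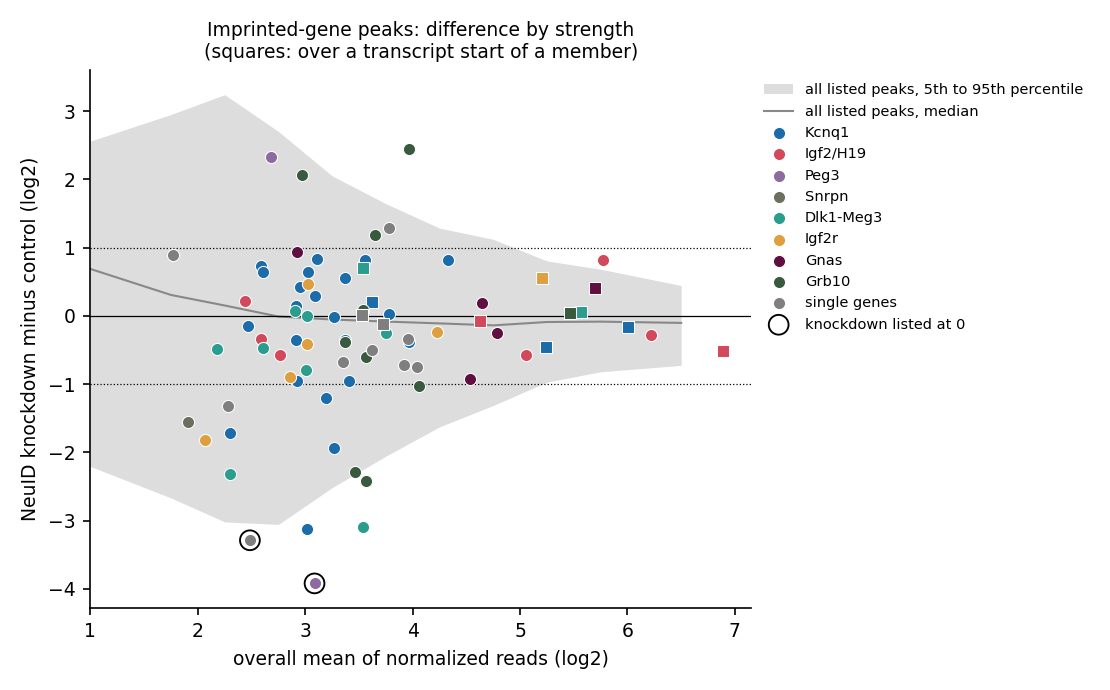
Difference between the NeuID knockdown and control log2 means (y axis) against the overall log2 mean of normalized reads (x axis) for the 78 imprinted-gene peaks, coloured by domain, squares covering a transcript start and rings marking knockdown values listed at 0. The grey band spans the 5th to 95th percentile of the listed peaks within each bin of the overall mean, for bins up to 7. All 10 member peaks at an overall mean of 5 or above sit between the dotted lines at 1 and -1.

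Near the limit the negative differences formed no clear gap, and the positive ones left a wider step. The smallest negative difference past it was -1.03, in a Grb10 intron, and the closest inside it were -0.96 at 2 Kcnq1 intron peaks. The smallest positive difference past it was 1.18, upstream of Grb10, and the closest inside was 0.93, upstream of Gnas.

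By domain, summed reads in the knockdown ranged from 33.8% of the control in Snrpn, which had 1 weak peak, to 103% in Igf2r and Gnas. Kcnq1 held 25 peaks with sums of 336 control and 304 knockdown reads (90.7%, a log2 ratio of -0.14), and Igf2/H19 held 8 peaks with 343 and 301 reads (87.7%, -0.19). Dlk1-Meg3 went from 135 to 109 reads over 10 peaks (81.1%, -0.30), and the single genes from 135 to 107 over 11 peaks (79.6%, -0.33). Grb10 had nearly equal sums, 154 and 152 reads over 10 peaks (98.5%, -0.02), although it had 3 peaks past the limit in each direction. Of all listed peaks, 20.6% were lower and 20.4% higher past the limit. Sums are set by the strongest peaks, and the Snrpn and Peg3 sums rest on 1 and 2 peaks. With every peak between the first and last gene of a domain taken in, the log2 ratio of Snrpn turned from -1.56 to 0.04 over 5 peaks, and that of Igf2r went from 0.05 to 0.49. The Peg3 ratio of -0.50 became 2.32 without its peak listed at 0.

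**Figure D2:**
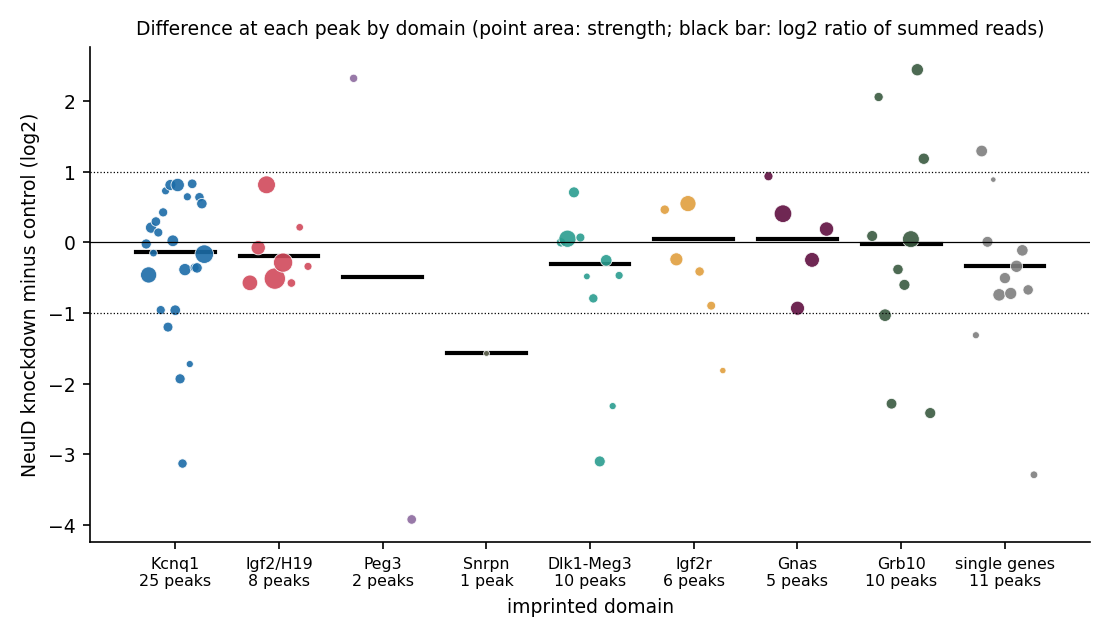
Log2 difference of each imprinted-gene peak (y axis) by domain (x axis), with the point area growing with the overall mean and a black bar at the log2 ratio of summed reads. Large points lie between the dotted lines at 1 and -1, and Grb10 spreads from -2.42 to 2.44 around a bar at -0.02.

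In the Kcnq1 domain most peaks lay at the Kcnq1 start, in the far end of that gene and over the Phlda2 start, with single peaks in the Kcnq1ot1 body, upstream of Slc22a18 and inside it. Kcnq1 encodes a voltage-gated potassium channel and is expressed from the maternal copy in early development. Over its first exon (chr7:143106531-143107874, 1344 bp) the control mean was 5.43 and the knockdown mean 4.97, a difference of -0.46. A peak over a further transcript start (chr7:143108021-143108517) stood at 3.53 and 3.73 (0.21), and a peak just upstream at 3.27 and 3.25 (-0.02). At the Kcnq1 start all 3 peaks thus differed by less than the limit.

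Kcnq1ot1, the paternally expressed antisense RNA that starts inside Kcnq1 and silences the domain, had 1 peak along its 93.1 kb, at 2.54 in the control and 2.39 in the knockdown (-0.15). It overlapped an intron of Kcnq1, and ChIP reads do not tell such genes apart. From the Kcnq1ot1 start to the end of the Kcnq1 gene body, 130 kb, there were 18 peaks, or 13.8 per 100 kb against 1.07 in the Kcnq1ot1 body. All 18 had an overall mean between 2.30 and 4.33, and 7 of them also overlapped the noncoding gene 4933417O13Rik.

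Of these 18 distal peaks, 4 (22.2%) were lower past the limit, a share near the 20.6% of all listed peaks. None was higher past it, where 20.4% of all listed peaks were, and the largest positive difference among them was 0.83. Below 0 lay 9 of the 18, against 50.8% of all. The largest difference was at chr7:143379527-143380113, whose sequence is given above, from 3.76 to 0.63 (-3.13), or from 13.5 to 1.54 reads. A peak at chr7:143373720-143374250 went from 3.85 to 1.92 (-1.93), a peak of 285 bp starting at position 143395674 from 2.85 to 1.13 (-1.72), and a peak starting at 143352242 from 3.62 to 2.42 (-1.20). The strongest of the 18, at chr7:143372574-143373573, lay next to the second of these and was at 3.91 in the control and 4.72 in the knockdown (0.81). Neighbouring peaks therefore differed in direction within the same intron.

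**Figure D3:**
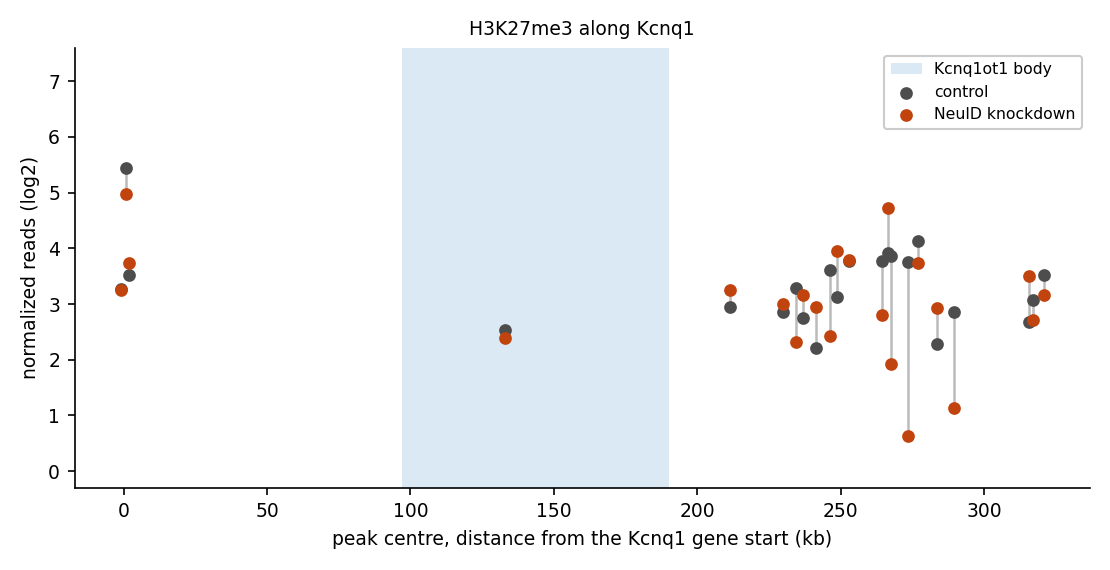
Control (grey) and NeuID knockdown (orange) log2 means of each peak in the Kcnq1 window (y axis) by the distance of its centre from the Kcnq1 start in kb (x axis), with a line joining the 2 values of a peak and the Kcnq1ot1 body shaded. The mark sits at the gene start and beyond 200 kb, with 1 peak in the shaded body, and the 4 longest downward lines are the distal peaks past the limit.

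At the other end of the domain, Phlda2, a maternally expressed regulator of placental growth, carried the third strongest member peak. The peak covered the whole gene (chr7:143501486-143503885, 2400 bp) at 6.08 in the control and 5.91 in the knockdown (-0.17). Slc22a18, a maternally expressed solute carrier gene next to it, shared this peak and had another upstream (2.70 and 3.34, a difference of 0.64) and another over a coding exon (3.10 and 3.65, 0.55). Tspan32, Cd81 and Tssc4 had no listed peak within their windows, the nearest lying 22.0, 22.1 and 18.9 kb from the gene.

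Igf2, the paternally expressed fetal growth factor, held the densest mark of the 38 members, 19.2 peaks per 100 kb of window, with 5 peaks that covered 10751 bp within a span of 12231 bp. The strongest member peak, chr7:142659554-142663550 (3997 bp, over a transcript start), stood at 7.10 in the control and 6.58 in the knockdown, or 137 and 95.9 reads, a difference of -0.51. The next toward the Igf2 start, 2515 bp wide, was at 6.35 and 6.06 (-0.29). The peak on its other side, 1742 bp wide over a coding exon, went the other way, from 5.34 to 6.16 (0.81). The last 2, over the 3′ part of the gene, were at 4.66 and 4.58 (-0.08, over a transcript start) and at 5.28 and 4.71 (-0.57, the peak with miR-483). So 4 of the 5 were below 0 and none reached the limit, and the summed reads went from 323 to 284 (-0.19). The noncoding genes Gm49394 and Igf2os overlap this stretch, so the mark cannot be given to Igf2 alone.

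Ins2, an insulin gene that is imprinted in the yolk sac, had 3 peaks in introns of its annotated gene body of 64.7 kb. They lay 14.8 to 24.6 kb from the annotated start, with overall means from 2.44 to 2.76 and differences of -0.58, 0.21 and -0.34. H19, the maternally expressed noncoding RNA that shares enhancers with Igf2, had no peak, and the nearest listed peak was 32.4 kb away.

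Grb10 encodes an adaptor that dampens insulin and growth factor signalling, and it is known for expression from the paternal copy in neurons and from the maternal copy elsewhere. Its 10 peaks lay within 18327 bp around its starts. The peak over an internal transcript start (chr11:12036174-12038313, 2140 bp) was at 5.44 in the control and 5.49 in the knockdown (0.04), with 10.5 CG per 100 bp and 5 matches to TGCCGC. On its upstream side a peak of 1096 bp (chr11:12039178-12040273) went from 2.37 to 4.82 (2.44), or from 5.18 to 28.2 reads, and the next, starting at 12040774, from 2.99 to 4.17 (1.18). The outermost, starting at 12041559, went from 4.23 to 1.81 (-2.42). Neighbouring peaks upstream of Grb10 thus had differences of opposite sign.

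On the downstream side, inside the gene, peaks starting at 12032587 and 12031001 went from 4.11 to 1.83 (-2.28) and from 4.44 to 3.41 (-1.03). A short CG-rich peak over an untranslated exon (chr11:12025928-12026289, 362 bp, 11.3 CG per 100 bp, 4 matches to TGCCGC) went from 1.68 to 3.74 (2.06), or from 3.21 to 13.4 reads. The other 3 peaks had differences of -0.60, -0.38 and 0.09. Grb10 held 3 of the 5 member peaks that were higher past the limit. Of its 10 peaks 3 were lower and 3 higher, where 20.6% and 20.4% of all listed peaks were. Its peaks past the limit were all below an overall mean of 5, where 43.3% of all listed peaks passed it in either direction.

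In the Dlk1-Meg3 domain the Dlk1 start differed little while peaks in the noncoding Rian were lower. Dlk1, a paternally expressed Notch-like transmembrane protein that restrains differentiation, had its main peak over the start (chr12:109452737-109454308, 1572 bp) at 5.54 and 5.59 (0.05). A peak over a transcript start within the gene was at 3.17 and 3.88 (0.71), and an upstream peak was at 3.02 in both groups. Rian, a maternally expressed RNA that hosts small nucleolar RNAs and miRNAs, had 4 intronic peaks, all below 0 (50.8% of all listed peaks were). The one over miR-1188 (chr12:109611585-109612340) went from 4.28 to 1.18 (-3.10), or from 19.4 to 2.26 reads, and the one starting at 109614990 from 2.95 to 0.64 (-2.32). The others were at 3.31 and 2.52 (-0.79) and at 3.86 and 3.60 (-0.25). Past the limit were 2 of the 4, where 20.6% of all listed peaks were lower. Listed peaks as strong as the miR-1188 peak (overall mean of 3.5 to 4) spanned -2.06 to 1.64 (5th to 95th percentile). Those as strong as the peak starting at 109614990 (2 to 2.5) spanned -3.02 to 3.24. The summed reads of Rian went from 51.6 to 21.7, a log2 ratio of -1.25. The 4 peaks lay within 5422 bp, and neighbouring peaks of 1 gene are not replicates.

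Meg3, a maternally expressed noncoding RNA abundant in neurons, had a single weak peak over an exon, at 2.87 and 2.94 (0.07). Rtl1, a paternally expressed gene derived from a retrotransposon, stood at 2.37 and 1.89 (-0.48), and Mirg, a maternally expressed miRNA host, at 2.80 and 2.33 (-0.47). No peak was listed over the starts of Meg3, Rian, Rtl1 or Mirg.

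Gnas, a complex locus that encodes the stimulatory G protein alpha subunit and several alternative products from imprinted starts, held 5 peaks, none past the limit. The strongest began 58 bp past the gene start and covered a further transcript start (chr2:174284378-174286646, 2269 bp). It was at 5.50 in the control and 5.90 in the knockdown (0.41), where the antisense gene Nespas overlaps. The peaks on either side moved in opposite directions, from 2.42 to 3.36 upstream (0.93) and from 4.89 to 3.96 downstream (-0.93). Further along, peaks of 1162 and 1072 bp over coding exons were at 4.90 and 4.65 (-0.25) and at 4.56 and 4.74 (0.19), and the second held 6 matches to TGCCGC, the most of any member peak. Summed reads were 134 and 138 (0.04).

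In the Igf2r domain, Igf2r, which encodes a receptor that clears Igf2, and its antisense RNA Airn had no listed peak within 11.3 and 70.2 kb. The mark was found instead at the cation transporter genes Slc22a3 and Slc22a2, which Airn silences in placenta. The peak over the Slc22a3 start (chr17:12506597-12508276, 1680 bp) was at 4.93 and 5.47 (0.55), next to peaks at 4.33 and 4.09 (-0.24) and at 3.19 and 2.78 (-0.41). Another peak deeper in the gene was at 2.80 and 3.26 (0.46). Slc22a2 had a weak upstream peak at 3.20 and 2.30 (-0.90) and an intronic peak of 279 bp (chr17:12618704-12618982) at 2.63 and 0.82 (-1.81), or 6.20 and 1.76 reads, of which 62.0% of the bases were repeat-masked.

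The Peg3 and Snrpn domains held few and weak peaks, 2 and 1. Between Peg3, a paternally expressed zinc finger gene, and Zim1, its maternally expressed neighbour, a peak shared by both windows (chr7:6700242-6700665) was at 1.18 and 3.50 (2.32), or 2.27 and 11.3 reads, with 66.5% of its bases repeat-masked. Usp29, a paternally expressed gene for a ubiquitin protease, had an intronic peak (chr7:6807342-6807957) at 3.92 in the control, 15.1 reads, which was listed at 0 in the knockdown. Snrpn, which encodes a splicing protein expressed from the paternal copy in brain, had a single peak of 206 bp at 2.42 and 0.86 (-1.56), or 5.36 and 1.82 reads. Ndn, Magel2, Mkrn3 and Peg12, paternally expressed genes of the Prader-Willi region, lay 117 to 188 kb from the nearest peak, and Ube3a, maternally expressed in neurons, lay 10.8 kb from it. The share of repeats at these weak peaks is given as measured, and its part in the differences was not tested.

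Among the single genes, Zdbf2, a paternally expressed gene linked to feeding behaviour in young mice, was below 0 at 7 of 7 peaks. Its 4 upstream peaks, over the noncoding gene Gm11608, were at 4.33 and 3.59 (-0.74), 3.83 and 3.33 (-0.51), 4.20 and 3.48 (-0.72), and 4.11 and 3.77 (-0.34). The peak over its start (chr1:63273238-63274175, 938 bp, 12.6 CG per 100 bp) was at 3.77 and 3.66 (-0.11). Inside the gene a peak was at 3.62 and 2.95 (-0.67), and another (chr1:63288103-63288503) was at 3.29 in the control, 9.77 reads, and was listed at 0 in the knockdown. Summed reads went from 106 to 68.2, a log2 ratio of -0.63. All control values exceeded the knockdown values, though only the last peak passed the limit. Of all listed peaks 50.8% were below 0. Listed peaks with an overall mean of 3.5 to 4 spanned -2.06 to 1.64 (5th to 95th percentile). Neighbouring peaks of 1 gene are not replicates.

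Plagl1, a paternally expressed zinc finger regulator of other imprinted genes, was above 0 at 3 of 3 peaks. By comparison, 50.8% of all listed peaks were below 0. A peak in the first intron of Plagl1 (chr10:13060961-13061543, 6.86 CG per 100 bp) went from 3.05 to 4.34 (1.29), or from 8.26 to 20.2 reads. The peak over an internal transcript start (chr10:13090408-13091043) was at 3.52 and 3.53 (0.01), and a weak peak downstream was at 1.30 and 2.18 (0.89). Peg10, a paternally expressed gene derived from a retrotransposon and needed in placenta, had a peak of 329 bp over its coding exon (chr6:4753943-4754271) at 2.74 and 1.43 (-1.31). Its neighbour Sgce lay 6.74 kb from the nearest peak, just outside the window. Mest, Nnat, Impact and Peg13 had none, at 42.8, 107, 32.8 and 38.5 kb.

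**Figure D4:**
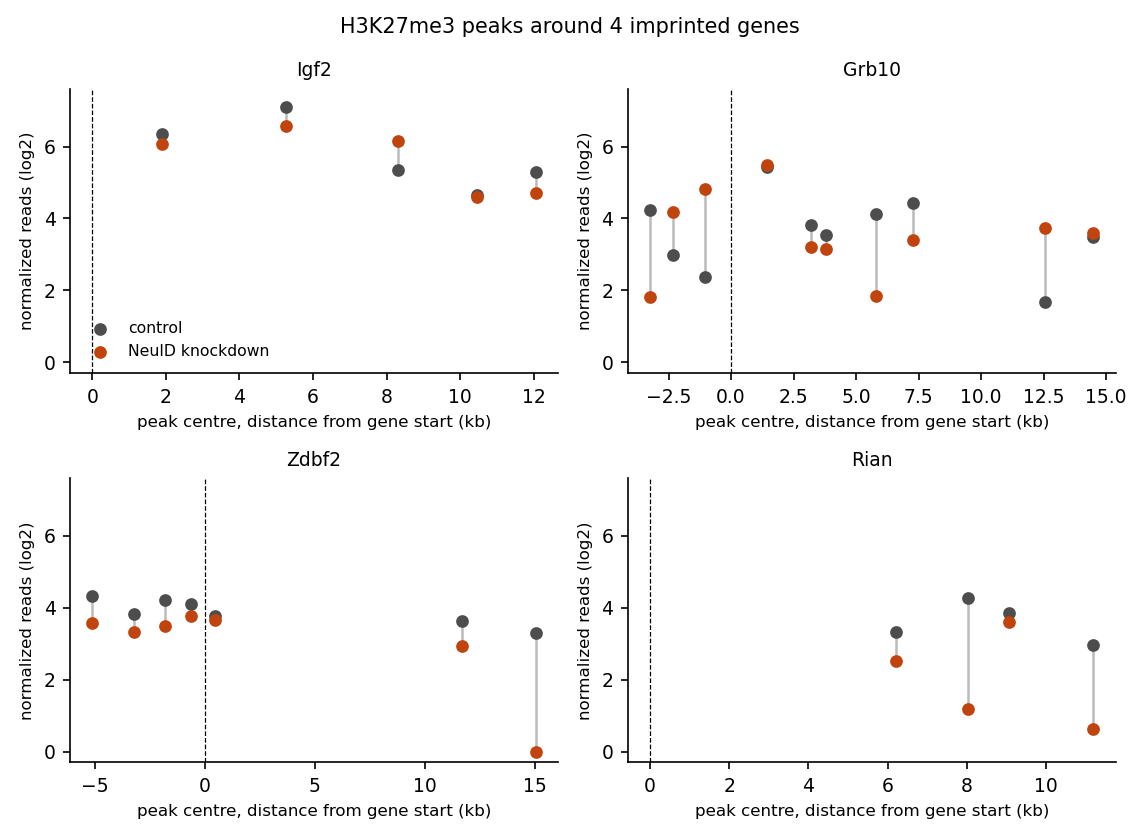
Control (grey) and NeuID knockdown (orange) log2 means (y axis) of the peaks of Igf2, Grb10, Zdbf2 and Rian by the distance of each peak centre from the gene start in kb along the gene (x axis, dashed line at the start). Igf2 holds the highest values, Grb10 has lines in both directions on either side of a level peak at 5.44 and 5.49, all 7 Zdbf2 and all 4 Rian peaks point down, and the Zdbf2 point at the bottom is a value listed at 0.

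In a list of 31 further imprinted genes the peaks past the limit were again the weaker ones, as most were in the whole table. There were 62 peaks in the windows of 18 of them, none shared with the 38 members. Of these 10 (16.1%) were lower and 16 (25.8%) higher past the limit, beside 20.6% and 20.4% of all peaks, with a median difference of -0.24. Of their 8 peaks at an overall mean of 5 or more, 0 passed the limit. Among all listed peaks, 4.26% of that strength and 43.3% of the weaker ones passed it. The 8 were all below 0, from -0.73 to -0.12, where 59.3% of all listed peaks of that strength were. The 3 strongest covered the starts of Klf14 (6.84 and 6.59, -0.25), a zinc finger factor, Dio3 (6.54 and 6.08, -0.47), which inactivates thyroid hormone at the far end of the Dlk1-Meg3 domain, and Kcnk9 (6.40 and 5.99, -0.41), a maternally expressed potassium channel. The difference between this list and the 38 members was not tested.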

How the data were processed

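H3K27me3 ChIP-seq of control and NeuID knockdown hippocampal neurons was analysed from 1 table of peaks. The authors aligned single-end reads to mm10 (GRCm38) using bowtie2, ran MACS2 for broad peaks and used DiffBind for the comparison. The authors deposited log2 means of normalized reads for each peak, over all libraries and per group. A value of 0 stands for at most 1 normalized read. The normalization, merging of peaks, duplicate removal and input subtraction are not given in the sources used here. The table also holds the authors' own fold change, p-value and FDR, which were not used. Values per library were not used, so no test was made.

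Differences are knockdown minus control log2 means. Reads are 2 to the power of a mean, and sums count a value listed at 0 as 1 read. Windows came from GENCODE M21. CG counts, repeats (lower-case bases) and motifs on both strands were read from GRCm38, and promoters and miRNAs from RefSeq. Promoter sequences were found for 30 of the 38 members. The peaks named are the strongest of each domain, those past the limit and those over a transcript start, with others added for context after their values were seen. The members and gene lists were chosen with earlier results of these data known. Scripts were tested on simulated data. Python 3.11.15, numpy 2.4.6, pandas 2.3.3 and pysam 0.24.0 were used.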

Additional observations from a re-analysis of the deposited data

How the results depend on the processing

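Over 11 alternatives, 70 of 89 recomputed values stayed within 0.1 (log2) or, for counts, within 1.5 times the reported one, and the median difference of the members was among these throughout. With a limit of 0.5, 27 member peaks were lower and 17 higher, against 33.3% and 32.2% of all peaks, and with a limit of 2, 7 were lower and 3 higher, against 8.61% and 8.45%. With an overall mean of at least 3, 8 of 54 were lower and 3 higher, against 17.4% and 12.8% of the 10823 listed peaks of that strength, whose median difference was -0.09 (members -0.24), and the log2 ratios were -0.12 for Grb10, 0.23 for Igf2r, -3.92 for Peg3 and -0.23 for the single genes. With the gene body alone, 13 of 63 peaks were lower and 2 higher, beside 20.6% and 20.4% of all listed peaks. The ratios were then -0.26 for Grb10, 0.19 for Igf2r, -3.92 for Peg3 and -0.16 for the single genes. Igf2r came to 0.25 with windows of 10 kb and 0.49 with every peak between its first and last gene. Both Peg3 values of -3.92 rest on the Usp29 peak alone, listed at 0 and counted as 1 read, so they are set by that floor. Peg3, at -0.50 as reported, came to 2.32 without the peak listed at 0. Snrpn turned from -1.56 to 0.045 with every peak between its first and last gene, 5 peaks in place of 1. The window, span and strength settings take other peaks into each sum.

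No paired analysis was possible because the columns used are group means. For the same reason libraries were not left out in turn. The 19 peaks past the limit had overall means of at most 4.06, and the error of their differences is unknown.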

Other observations

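Genes imprinted in the early embryo through maternal H3K27me3, without DNA methylation, had 11 peaks at 4 of 5 genes (Sfmbt2, Gab1, Smoc1 and Slc38a4, with none at Jade1). Of these, 0 were lower and 2 (18.2%) higher past the limit, where 20.6% and 20.4% of all listed peaks were. Below 0 lay 2 of 11 (18.2%), against 50.8% of all peaks, and the median difference was 0.47. Most of the 11 lay at the single gene Sfmbt2, so they do not stand for 5 genes. They were weak, with a median overall mean of 2.68 against 2.93 for all listed peaks. The 3 strongest were a Slc38a4 intron peak with a control mean of 4.58 and a knockdown mean of 5.06 (0.47), and Sfmbt2 peaks at 4.63 and 4.42 (-0.21) and at 4.17 and 4.46 (0.28). Slc38a4 encodes an amino acid transporter and Sfmbt2 a Polycomb-related protein of the placenta. Their values set beside those of the 38 members, with a median of -0.25, are a description, and the difference was not tested.

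The letters TGCCGC were found in 13 of the 78 member peaks (16.7%) and in 11.4% of all listed peaks, and GGNGGCAG, the end of the core shared by CTCF sites of the H19 control region, in 24 (30.8%) and 20.9%. Member peaks were wider, and a wider peak has more room for a match. In promoters of equal length (300 bases), TGCCGC was in 11 of 44 promoters of members (25.0%) and 11.6% of all 32851, and GGNGGCAG in 7 of 44 (15.9%) and 12.6%. The 44 promoters came from 30 members, so some genes counted more than once, and the shares were not tested. Among member peaks past the limit 1 of 19 held TGCCGC, and the share over all listed peaks past it was not computed. These 19 had a median width of 531 bp and 0.78 CG per 100 bp, against 597 bp and 1.57 for the 59 within it. Of member peaks over a transcript start 8 of 12 (66.7%) held TGCCGC. By comparison, 48.8% of all listed peaks over a gene start and 48.4% of all listed peaks of at least 1 kb did.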
